A study of Homo sapiens with 15 samples.

Results

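Genes that the tumour suppressor p53 is known to switch on were followed across 5 groups of melanoma cells. They were chosen by name as known targets, with earlier results of these data known. Of 32 gene symbols, 31 were rows of the deposited table of 18322 genes. All 31 passed the filter on low values, among 17012 tested genes. SPATA18, the remaining symbol, was not analysed here.

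The cells were A375, a melanoma line known for mutant BRAF, which the labels call melanocytes. Untreated stock cells (Parental) were compared with a clonal population selected for resistance to PLX4720, a drug against mutant BRAF (Resistant). Another group was parental cells carrying MYC T58A, a substitution known to lengthen the life of the MYC protein. The remaining groups are labelled as the resistant population with a hairpin against MYC, shMYC1 or shMYC2. Each group held 3 libraries that the submitters call biological triplicates, numbered here only to tell them apart (n = 3 for every mean and SD). Because resistance rests on 1 clonal population, the spread between libraries holds no variation between separately selected populations. No source used here says whether drug was present at harvest, what drives MYC T58A or which vector the groups without a hairpin carried.

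p53 is a transcription factor that is kept low by MDM2, a ubiquitin ligase whose own gene p53 activates, so that the pathway holds itself in check. When DNA is damaged or cells are stressed, p53 accumulates and binds pairs of short half-sites near genes that stop the cell cycle (CDKN1A), repair DNA (DDB2, XPC), prepare cell death (FAS, TNFRSF10B) or alter metabolism (SESN1, FDXR). Oncogenic MYC is a known activator of p53, and in melanoma the pathway is often blunted by loss of CDKN2A, which encodes the MDM2 inhibitor ARF.

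Promoter sequences show where p53 half-sites lie next to the starts of these genes. RefSeq (GRCh38.p14) gave windows of 300 bases, from 250 before to 50 after a start, for 24 of the 31 members (36 windows) and for 10641 tested genes (15692 windows). Both strands were searched for the p53 half-site consensus and for pairs of half-sites with a spacer of 0 to 13 bases. In every pair the C and G at the core of each half-site had to match, so mismatches were allowed only elsewhere. A half-site without mismatch stood in 7 of 24 members (29.2%), namely AEN, DDB2, FAS, FDXR, PLK2, RPS27L and SESN1, and in 7.85% of tested genes. A pair with at most 2 mismatches stood in 5 members (20.8%), namely AEN, DDB2, FAS, FDXR and MDM2, and in 3.59% of tested genes. Only 4 tested genes held a pair without any mismatch, among them DDB2. CACGTG, the E-box known to bind MYC, stood in AEN and EDA2R (8.33% of members) and in 12.4% of tested genes. The limit of 2 mismatches was chosen after the matches were seen, and members are known p53 targets, so these shares describe the list. A match is a run of letters and not a measured binding site.

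The 250 bases before the start are shown for MDM2, FAS and FDXR, the feedback, death receptor and mitochondrial genes whose levels are followed below, with the half-site pair in capitals. The MDM2 stretch is chr12:68808767-68809016 and the FAS stretch chr10:88991181-88991430, both on the plus strand. Each belongs to an alternative start downstream of the first start of its gene, and neither pair has a spacer. The FDXR stretch is chr17:74872995-74873244, read on the minus strand, and its half-sites are 10 bases apart. Each of the MDM2, FAS and FDXR pairs has 2 mismatches to the consensus. In FDXR both fall in the middle of the first half-site, and the second has none.
MDM2: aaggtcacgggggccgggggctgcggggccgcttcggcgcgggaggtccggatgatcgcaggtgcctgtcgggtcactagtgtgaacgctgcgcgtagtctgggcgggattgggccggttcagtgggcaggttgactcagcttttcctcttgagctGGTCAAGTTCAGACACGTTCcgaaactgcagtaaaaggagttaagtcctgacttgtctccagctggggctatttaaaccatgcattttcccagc
FAS: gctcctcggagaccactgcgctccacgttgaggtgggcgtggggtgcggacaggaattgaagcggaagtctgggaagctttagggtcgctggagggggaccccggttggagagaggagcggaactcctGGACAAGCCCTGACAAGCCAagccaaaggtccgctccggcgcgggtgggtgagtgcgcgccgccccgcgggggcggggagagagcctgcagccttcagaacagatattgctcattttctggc
FDXR: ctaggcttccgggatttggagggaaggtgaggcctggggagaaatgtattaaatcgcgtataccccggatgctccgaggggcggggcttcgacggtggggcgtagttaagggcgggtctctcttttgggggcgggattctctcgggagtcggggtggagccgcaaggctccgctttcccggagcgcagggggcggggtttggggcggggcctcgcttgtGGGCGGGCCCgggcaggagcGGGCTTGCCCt
The pairs of AEN, DDB2 and GDF15 are shown for comparison, because AEN and DDB2 were lower in Resistant cells and GDF15 had the widest range of all members. The AEN pair (chr15:88621306-88621325, plus strand) lies before the start. The DDB2 pair (chr11:47214979-47214999, plus strand) lies just after the start and has no mismatch. The GDF15 pair (chr19:18386186-18386205, plus strand) also lies after the start, has 3 mismatches and was added after the values were seen.
AEN: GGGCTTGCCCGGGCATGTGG
DDB2: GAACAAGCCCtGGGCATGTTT
GDF15: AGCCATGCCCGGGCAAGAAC

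The libraries held 24222192 to 30399644 reads in genes, and a member had 46 to 11221 reads in a library. Values below are normalized reads, and differences are on the log2(value + 1) scale with the SE of the limma fit. A gene is called where limma's p, adjusted over all 17012 tested genes, is under 0.05. The same Resistant libraries enter Resistant against Parental and each hairpin label against Resistant, with opposite sign. Opposite directions in these comparisons are therefore partly built in. MYC, the gene targeted by the hairpins, went against both hairpin labels, with 422.7 ± 11.9 in Parental cells, 302.5 ± 28.1 in Resistant cells, 486.0 ± 29.5 with the shMYC1 label, 7817 ± 260 with the shMYC2 label and 3511 ± 94.4 with MYC T58A. In the libraries labelled shMYC2, 1636 to 1694 genes had no read, against 296 to 665 elsewhere. Of 10 melanocyte markers 7 were measured, and their summed level was 198 to 247 with the shMYC2 label, where DCT had no read, and 3568 to 15655 in the other groups. The 8 fibroblast markers summed to 3970 to 4182 in Resistant cells and to 430 to 619 elsewhere. Their part in the results below was not tested.

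The p53 targets did not move in 1 direction across the 5 groups. Parental cells had the highest group mean of 1 member (AEN; 3.23%, against 11.3% of all tested genes) and the lowest of 11 (35.5%, against 10.4%). MYC T58A cells had the highest mean of 14 members (45.2%, against 22.7% of all tested genes) and the lowest of 6 (19.4%, against 21.6%). The shMYC2 label had the highest mean of 7 members (22.6%, against 31.6% of all tested genes), Resistant of 5 (16.1%, against 20.7%) and the shMYC1 label of 4 (12.9%, against 13.8%), none of them a larger share than over all tested genes. The ratio of the highest to the lowest group mean had a median of 1.88 over the members and was under 2 for 19 of them. It was smallest for PPM1D (1.34) and over 4 for GDF15 (49.1), CD82 (47.7), BTG2 (9.75) and ZMAT3 (4.11). Within groups the libraries lay close together, with a median coefficient of variation over the members of 2.59% (Parental) to 6.70% (shMYC1 label).

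**Figure D1:**
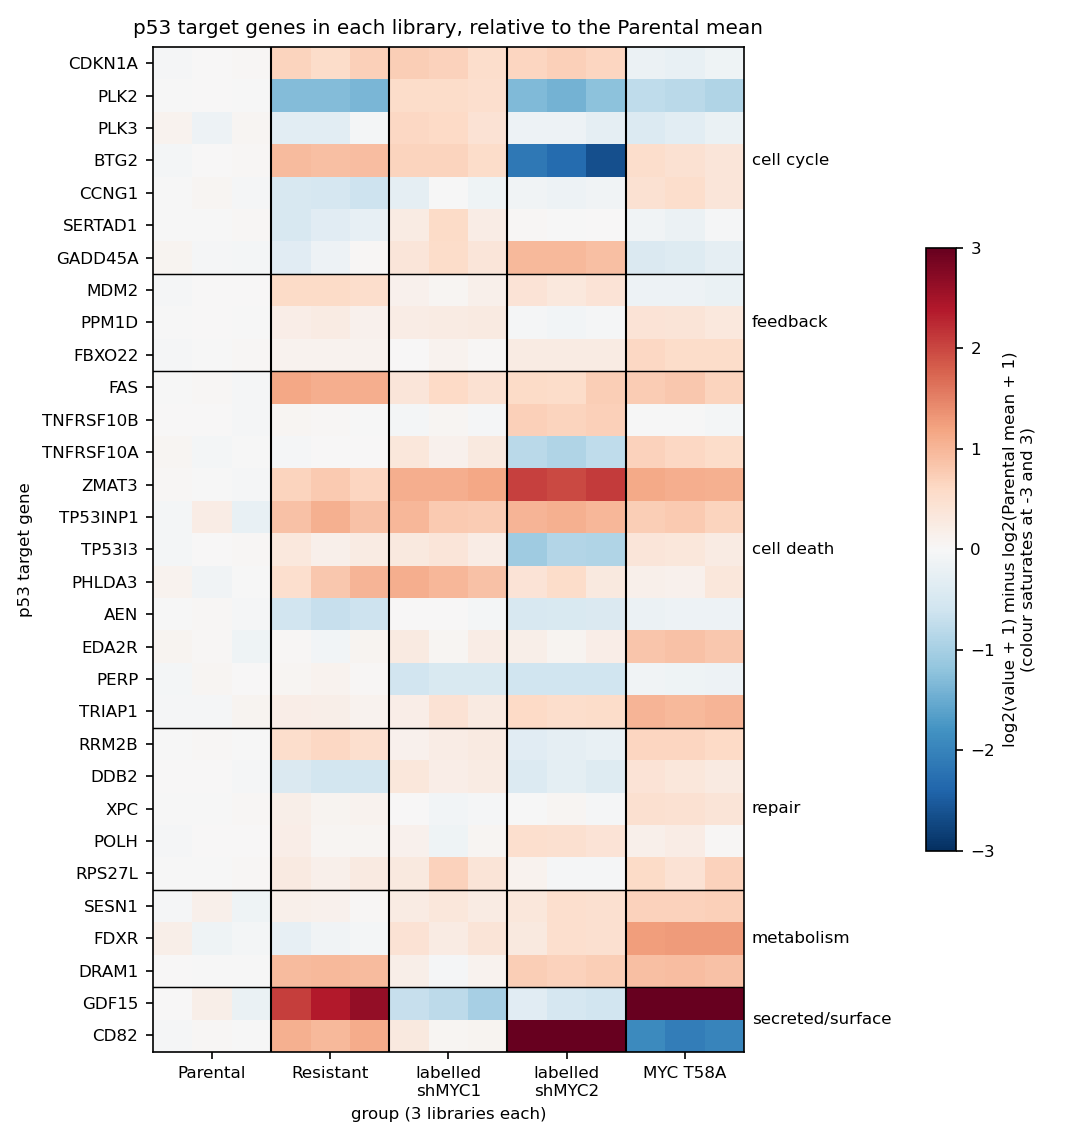
Each row is 1 of the 31 p53 target genes, ordered by role, and each column 1 of the 15 libraries, ordered by group; the colour is the log2(value + 1) of the library less the mean of the 3 Parental libraries. GDF15, CD82, BTG2 and ZMAT3, whose group means differ by 4.11 to 49.1 times, carry the strongest colours.

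The p53 protein was not measured. MDM2, the ligase that marks p53 for breakdown, was measured at 6986, 7231 and 7158 in Parental cells, 10630.5, 10548 and 10213 in Resistant cells, 7812, 7435 and 7959 with the shMYC1 label, 9522, 8827 and 9411 with the shMYC2 label and 6463, 6439.9 and 6168 with MYC T58A. No groups overlap, with Resistant highest and MYC T58A lowest. MDM2 was 1.47-fold higher in Resistant cells than in Parental cells (0.55, SE 0.0422, adjusted p = 4.6e-09). Relative to Resistant it was 1.35-fold lower with the shMYC1 label (-0.44, SE 0.0422, adjusted p = 7.75e-08) and 1.13-fold lower with the shMYC2 label (-0.18, SE 0.0422, adjusted p = 0.000881). MYC T58A cells had 1.12-fold lower MDM2 than Parental cells (-0.16, SE 0.0422, adjusted p = 0.00243). There the 50 tested genes nearest to MDM2 on its chromosome had a median difference of -0.47, and MDM2 less that median was 0.30, so its direction turns when it is read against its neighbours. PPM1D, a phosphatase that switches off p53 signalling, was measured at 857.8 ± 8.11 in Parental cells, 978.1 ± 42.9 in Resistant cells, 1017 ± 9.62 with the shMYC1 label, 826.6 ± 19.9 with the shMYC2 label and 1105 ± 37.5 with MYC T58A. It was 1.14-fold higher in Resistant cells (0.19, SE 0.0487, adjusted p = 0.00337) and 1.29-fold higher with MYC T58A (0.36, SE 0.0487, adjusted p = 3.53e-06), both against Parental. FBXO22, the substrate-binding part of a ubiquitin ligase, was measured at 1603 ± 41.4 in Parental cells, 1719 ± 8.9 in Resistant cells, 1656 ± 53.3 with the shMYC1 label, 1904 ± 5.85 with the shMYC2 label and 2380.3 ± 62.5 with MYC T58A, and was 1.48-fold higher with MYC T58A (0.57, SE 0.0419, adjusted p = 1.67e-09) and missed the threshold in Resistant cells (0.10, SE 0.0419, adjusted p = 0.0526).

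**Figure D2:**
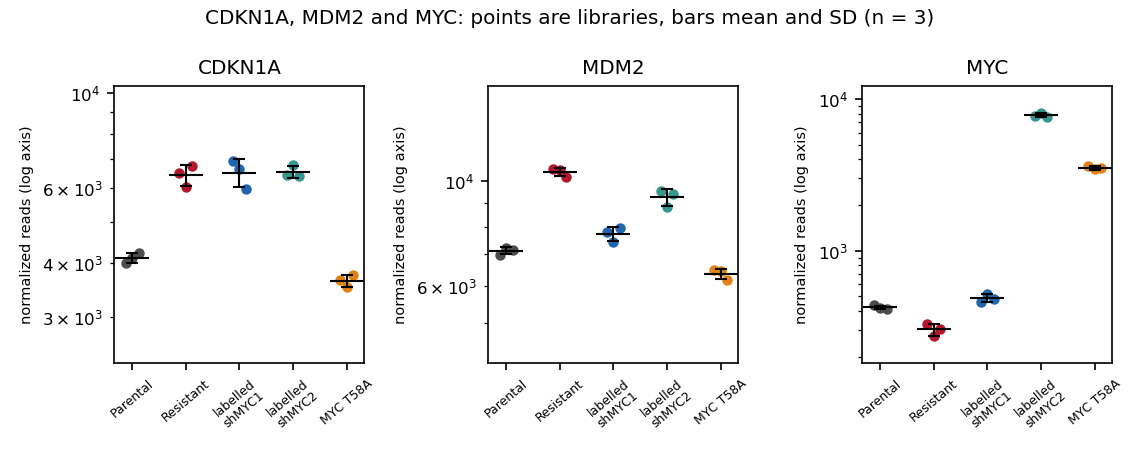
Normalized reads (vertical log axes) of CDKN1A, MDM2 and MYC in the 5 groups; points are the 3 libraries of a group, with their mean and SD. CDKN1A libraries of the Resistant group and of both hairpin labels overlap, while mean MYC goes from 302.5 to 7817 across these groups.

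CDKN1A, which encodes the cyclin-dependent kinase inhibitor p21, was measured at 4002, 4117 and 4230.1 in Parental cells, 6489, 6034 and 6723 in Resistant cells, 6906, 6625 and 5955 with the shMYC1 label, 6411, 6759 and 6385 with the shMYC2 label and 3653, 3511 and 3749 with MYC T58A. Resistant and hairpin groups overlap one another and lie wholly above Parental, and MYC T58A lies wholly below it. CDKN1A was 1.56-fold higher in Resistant cells than in Parental cells (0.64, SE 0.055, adjusted p = 2.27e-08) and 1.13-fold lower with MYC T58A (-0.18, SE 0.055, adjusted p = 0.00878). Neither hairpin group passed the threshold against Resistant (0.02, SE 0.055, adjusted p = 0.818 for shMYC1; 0.02, SE 0.055, adjusted p = 0.699 for shMYC2). The neighbours of CDKN1A had a median of 0.48 with the shMYC2 label, and CDKN1A less that median was -0.46. MYC T58A cells had 1.76-fold lower CDKN1A than Resistant cells (-0.82, SE 0.055, adjusted p = 3.34e-10).

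The other members grouped under the cell cycle, which need not all act in arrest, split in direction. PLK2, a polo-like kinase induced by p53, was measured at 4792, 4895 and 4843 in Parental cells, 1964, 1972 and 1886 in Resistant cells, 7054, 7099 and 6923 with the shMYC1 label, 1937, 1821 and 2048 with the shMYC2 label and 2870.2, 2759.8 and 2609.9 with MYC T58A. Only Resistant and the shMYC2 label overlap. PLK2 was 2.5-fold lower in Resistant cells than in Parental cells (-1.32, SE 0.0478, adjusted p = 2.25e-13) and 1.76-fold lower with MYC T58A (-0.82, SE 0.0478, adjusted p = 7.44e-11). Its neighbours on chromosome 5 had medians of -0.52 and -0.04 in these comparisons. With the shMYC1 label it was 3.62-fold higher than in Resistant cells (1.86, SE 0.0478, adjusted p = 1.02e-15), where the median of its neighbours was 0.51. CCNG1, cyclin G1, also lies on chromosome 5 and was measured at 5277 ± 159 in Parental cells, 3659.7 ± 206 in Resistant cells, 4824 ± 421 with the shMYC1 label, 4855 ± 95.6 with the shMYC2 label and 7208 ± 389 with MYC T58A. Resistant cells had 1.44-fold lower CCNG1 (-0.53, SE 0.0598, adjusted p = 7.24e-07; neighbours -0.43) and MYC T58A cells 1.37-fold higher CCNG1 (0.45, SE 0.0598, adjusted p = 3.36e-06; neighbours -0.04), both against Parental. Less the median of its neighbours CCNG1 was -0.10 in Resistant cells and no longer called.

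BTG2, an antiproliferative gene of the BTG family, was highest in Resistant cells and lowest with the shMYC2 label, at 558.6, 584.8 and 598.9 in Parental cells, 1118, 1095 and 1102 in Resistant cells, 922.8, 919.2 and 853.6 with the shMYC1 label, 131.3, 116.8 and 92.1 with the shMYC2 label and 838.5, 793.6 and 744.8 with MYC T58A. No groups overlap. It was 1.9-fold higher in Resistant cells than in Parental cells (0.93, SE 0.0929, adjusted p = 1.57e-07) and 9.75-fold lower with the shMYC2 label than in Resistant cells (-3.29, SE 0.0929, adjusted p = 4.72e-16). The neighbours of BTG2 on chromosome 1 had medians of 0.49 and -0.79 there. The shMYC1 label gave 1.23-fold lower BTG2 than Resistant (-0.30, SE 0.0929, adjusted p = 0.0104), and less the median of the neighbours the difference was 0.12.

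GADD45A, a growth arrest gene that acts on stress kinases, was measured at 1262 ± 61.4 in Parental cells, 1145 ± 150 in Resistant cells, 1692 ± 137 with the shMYC1 label, 2436 ± 74.6 with the shMYC2 label and 979.5 ± 60 with MYC T58A. It was 2.13-fold higher with the shMYC2 label (1.10, SE 0.0803, adjusted p = 5.72e-10) and 1.48-fold higher with the shMYC1 label (0.57, SE 0.0803, adjusted p = 9.1e-06) than in Resistant cells. PLK3, another polo-like kinase, was measured at 339.0 ± 30.8 in Parental cells, 289.7 ± 29 in Resistant cells, 496.7 ± 33.3 with the shMYC1 label, 297.6 ± 13.3 with the shMYC2 label and 274.9 ± 20.5 with MYC T58A, and was 1.71-fold higher with the shMYC1 label than in Resistant cells (0.78, SE 0.0909, adjusted p = 8.49e-07). With MYC T58A both genes were lower than in Parental cells (-0.37, SE 0.0803, adjusted p = 0.000681 for GADD45A; -0.30, SE 0.0909, adjusted p = 0.00787 for PLK3). Their neighbours on chromosome 1 had medians of -0.48 and -0.57 there, and less these medians the genes stood at 0.11 and 0.27. SERTAD1, a regulator of CDK4, was measured at 455.5 ± 7.78 in Parental cells, 355.9 ± 29.4 in Resistant cells, 581.2 ± 84.3 with the shMYC1 label, 460.8 ± 8.91 with the shMYC2 label and 423.7 ± 21.4 with MYC T58A. It was 1.28-fold lower in Resistant cells than in Parental cells (-0.36, SE 0.0865, adjusted p = 0.00201) and 1.63-fold higher with the shMYC1 label than in Resistant cells (0.70, SE 0.0865, adjusted p = 1.72e-06).

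Among the 11 members grouped under cell death, the receptor FAS was highest in Resistant cells. The receptors for the death ligand TRAIL moved apart with the shMYC2 label. The grouping does not mean that a gene promotes death, since it includes TRIAP1, described below as protective. FAS was measured at 720.6, 743.6 and 706.4 in Parental cells, 1625, 1539.8 and 1546 in Resistant cells, 936.1, 1104 and 990.3 with the shMYC1 label, 1072, 1063 and 1202 with the shMYC2 label and 1227, 1263 and 1156 with MYC T58A. All Parental libraries lay below, and all Resistant libraries above, those of the other groups. FAS was 2.17-fold higher in Resistant (1.12, SE 0.0641, adjusted p = 1.05e-10) and 1.68-fold higher in MYC T58A cells (0.75, SE 0.0641, adjusted p = 1.29e-08) than in Parental cells. Relative to Resistant it was 1.55-fold lower with the shMYC1 label (-0.64, SE 0.0641, adjusted p = 1.22e-07) and 1.41-fold lower with the shMYC2 label (-0.50, SE 0.0641, adjusted p = 1.08e-06). In that last comparison the neighbours on chromosome 10 had a median of -0.57, and FAS less that median was 0.069.

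TNFRSF10B, the TRAIL receptor DR5, was measured at 3989 ± 69.9 in Parental cells, 4054 ± 103 in Resistant cells, 3975 ± 173 with the shMYC1 label, 6477 ± 104 with the shMYC2 label and 3930.2 ± 71.3 with MYC T58A, and all groups but that labelled shMYC2 overlap. With the shMYC2 label its libraries read 6553, 6359 and 6519, which is 1.6-fold higher than in Resistant cells (0.68, SE 0.0413, adjusted p = 3.44e-11; neighbours -0.36). TNFRSF10A, the TRAIL receptor DR4, was measured at 1059, 989.4 and 1023 in Parental cells, 997.8, 1033 and 1031 in Resistant cells, 1286, 1114 and 1256 with the shMYC1 label, 585.7, 550.7 and 607.7 with the shMYC2 label and 1651, 1574 and 1512 with MYC T58A. Only Parental and Resistant overlap. TNFRSF10A was 1.76-fold lower with the shMYC2 label than in Resistant cells (-0.81, SE 0.06, adjusted p = 5.34e-10; neighbours -0.32) and 1.54-fold higher with MYC T58A than in Parental cells (0.62, SE 0.06, adjusted p = 5.65e-08).

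ZMAT3, an RNA-binding zinc finger protein, was lowest in Parental cells, at 691.5, 669.8 and 657.4 in Parental cells, 1076, 1155 and 1061 in Resistant cells, 1428, 1441 and 1510.3 with the shMYC1 label, 2777, 2645 and 2879 with the shMYC2 label and 1474, 1442 and 1412 with MYC T58A. Only the shMYC1 label and MYC T58A overlap. It was 1.63-fold higher in Resistant (0.70, SE 0.0497, adjusted p = 1.7e-09) and 2.14-fold higher in MYC T58A cells (1.10, SE 0.0497, adjusted p = 2.27e-12) than in Parental cells, 2 comparisons that share the Parental libraries. It was also 2.52-fold higher with the shMYC2 label than in Resistant cells (1.33, SE 0.0497, adjusted p = 2.6e-14), where its neighbours on chromosome 3 had a median of 0.89. TP53INP1, a nuclear stress protein, was measured at 94.8 ± 15.4 in Parental cells, 184.3 ± 14.6 in Resistant cells, 172.6 ± 16.2 with the shMYC1 label, 194.8 ± 5.06 with the shMYC2 label and 158.0 ± 6.78 with MYC T58A. It was 1.94-fold higher in Resistant cells than in Parental cells (0.96, SE 0.114, adjusted p = 1.34e-06).

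TRIAP1, which carries lipid within mitochondria and protects cells from apoptosis, was measured at 1276, 1275 and 1375 in Parental cells, 1500.5, 1486 and 1414 in Resistant cells, 1513, 1763 and 1572 with the shMYC1 label, 1968, 1893 and 1906 with the shMYC2 label and 2636, 2581 and 2664 with MYC T58A, with no overlap between groups. MYC T58A cells had 2.01-fold higher TRIAP1 than Parental cells (1.01, SE 0.0547, adjusted p = 2.86e-11). EDA2R, a receptor of the TNF family, was measured at 373.3 ± 28.5 in Parental cells, 376.0 ± 21.7 in Resistant cells, 426.1 ± 31.6 with the shMYC1 label, 416.0 ± 17 with the shMYC2 label and 670.6 ± 19.5 with MYC T58A, and was 1.8-fold higher with MYC T58A than in Parental cells (0.85, SE 0.0747, adjusted p = 1.86e-08). PHLDA3, an inhibitor of AKT, was measured at 1108 ± 86.3 in Parental cells, 1922 ± 335 in Resistant cells, 2206 ± 148 with the shMYC1 label, 1490.4 ± 130 with the shMYC2 label and 1284 ± 112 with MYC T58A. It was 1.73-fold higher in Resistant cells than in Parental cells (0.78, SE 0.109, adjusted p = 2.14e-05), where its neighbours on chromosome 1 had a median of 0.49.

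AEN, a nuclease that acts in apoptosis, was measured at 4710.2 ± 82.8 in Parental cells, 3042 ± 113 in Resistant cells, 4687 ± 137 with the shMYC1 label, 3433 ± 50.2 with the shMYC2 label and 4213 ± 52.3 with MYC T58A. It was 1.55-fold lower in Resistant cells than in Parental cells (-0.63, SE 0.0406, adjusted p = 4.85e-10) and 1.54-fold higher with the shMYC1 label than in Resistant cells (0.62, SE 0.0406, adjusted p = 3.79e-10). TP53I3, an oxidoreductase, was measured at 613.6 ± 19.4 in Parental cells, 727.2 ± 40.6 in Resistant cells, 750.8 ± 36.4 with the shMYC1 label, 319.4 ± 22.2 with the shMYC2 label and 768.7 ± 31.9 with MYC T58A, and was 2.28-fold lower with the shMYC2 label than in Resistant cells (-1.19, SE 0.066, adjusted p = 8.88e-12). PERP, a membrane protein of cell junctions, was measured at 4176 ± 170 in Parental cells, 4373 ± 110 in Resistant cells, 2963 ± 123 with the shMYC1 label, 2759 ± 18.2 with the shMYC2 label and 3812 ± 63.7 with MYC T58A. Relative to Resistant it was 1.48-fold lower with the shMYC1 label (-0.56, SE 0.0435, adjusted p = 3.98e-09) and 1.58-fold lower with the shMYC2 label (-0.66, SE 0.0435, adjusted p = 9.7e-11).

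The repair genes differed by less than 2-fold between any groups set against each other here. RRM2B, a subunit of ribonucleotide reductase that supplies nucleotides for repair, was measured at 2265, 2341 and 2277 in Parental cells, 3302, 3536 and 3263 in Resistant cells, 2516, 2666 and 2783 with the shMYC1 label, 1813, 1895 and 1956 with the shMYC2 label and 3587, 3586 and 3462 with MYC T58A. Only Resistant and MYC T58A overlap. It was 1.47-fold higher in Resistant (0.55, SE 0.0482, adjusted p = 2.74e-08) and 1.55-fold higher in MYC T58A cells (0.63, SE 0.0482, adjusted p = 2.98e-09) than in Parental cells, and 1.78-fold lower with the shMYC2 label than in Resistant cells (-0.83, SE 0.0482, adjusted p = 1.55e-11). DDB2, which finds ultraviolet damage in chromatin, was measured at 1134, 1135 and 1102 in Parental cells, 832.4, 770.9 and 762.0 in Resistant cells, 1419, 1298 and 1334 with the shMYC1 label, 839.8, 917.8 and 855.2 with the shMYC2 label and 1495, 1416 and 1348 with MYC T58A. Resistant cells had the lowest mean, and only the shMYC1 label and MYC T58A overlap. DDB2 was 1.43-fold lower in Resistant cells than in Parental cells (-0.51, SE 0.0564, adjusted p = 5.38e-07) and 1.71-fold higher with the shMYC1 label than in Resistant cells (0.78, SE 0.0564, adjusted p = 1.69e-09).

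XPC, which acts with DDB2 in nucleotide excision repair, was measured at 1769 ± 34.1 in Parental cells, 1932 ± 66.3 in Resistant cells, 1721 ± 55.9 with the shMYC1 label, 1767 ± 59.6 with the shMYC2 label and 2414 ± 81.8 with MYC T58A, and was 1.36-fold higher with MYC T58A than in Parental cells (0.45, SE 0.0463, adjusted p = 1.46e-07). POLH, a polymerase that copies past ultraviolet lesions, was measured at 1040.1 ± 16.1 in Parental cells, 1122 ± 60.5 in Resistant cells, 1061 ± 94.8 with the shMYC1 label, 1439.9 ± 50.1 with the shMYC2 label and 1149.7 ± 71.8 with MYC T58A. It was 1.28-fold higher with the shMYC2 label than in Resistant cells (0.36, SE 0.0654, adjusted p = 6.49e-05), where its neighbours on chromosome 6 had a median of 0.63, and less that median it was -0.27. RPS27L, a ribosomal protein paralog, was measured at 3038 ± 48.4 in Parental cells, 3566 ± 151 in Resistant cells, 4184 ± 628 with the shMYC1 label, 3074 ± 190 with the shMYC2 label and 4515 ± 431 with MYC T58A, and was 1.49-fold higher with MYC T58A than in Parental cells (0.57, SE 0.0866, adjusted p = 2.61e-05). It resembles RPS27 closely, so how reads were assigned between them makes its level uncertain.

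All 3 metabolic members were higher with MYC T58A than in Parental cells. FDXR, the mitochondrial ferredoxin reductase, was measured at 507.7, 414.8 and 436.2 in Parental cells, 382.1, 418.3 and 437.0 in Resistant cells, 611.7, 541.6 and 592.7 with the shMYC1 label, 555.5, 640.4 and 632.2 with the shMYC2 label and 1078, 1103 and 1099 with MYC T58A. Parental overlaps with Resistant, the hairpin groups overlap with each other, and MYC T58A stands alone. FDXR was 2.41-fold higher with MYC T58A than in Parental cells (1.28, SE 0.0803, adjusted p = 2.11e-10; neighbours 0.11) and not called in Resistant cells (-0.13, SE 0.0803, adjusted p = 0.185). SESN1, a sestrin that restrains mTORC1, was measured at 428.0 ± 40.6 in Parental cells, 459.1 ± 19.7 in Resistant cells, 518.2 ± 18 with the shMYC1 label, 582.7 ± 33.8 with the shMYC2 label and 695.4 ± 8.01 with MYC T58A, and was 1.62-fold higher with MYC T58A than in Parental cells (0.70, SE 0.07, adjusted p = 8.95e-08).

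DRAM1, a lysosomal protein that promotes autophagy, was measured at 756.9, 747.7 and 741.9 in Parental cells, 1458, 1474 and 1455 in Resistant cells, 848.6, 728.6 and 803.0 with the shMYC1 label, 1249, 1213 and 1257 with the shMYC2 label and 1409, 1423 and 1375 with MYC T58A. Parental overlaps with the shMYC1 label alone. DRAM1 was 1.95-fold higher in Resistant (0.96, SE 0.0523, adjusted p = 5.25e-11) and 1.87-fold higher in MYC T58A cells (0.90, SE 0.0523, adjusted p = 6.64e-11) than in Parental cells. With the shMYC1 label it was 1.84-fold lower than in Resistant cells (-0.88, SE 0.0523, adjusted p = 1.02e-10).

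The secreted and surface members had the widest ranges. GDF15, a stress cytokine of the TGF-beta family, was measured at 90.3, 100.4 and 77.2 in Parental cells, 376.7, 465.3 and 561.7 in Resistant cells, 55.2, 51.2 and 44 with the shMYC1 label, 70, 62.6 and 59.3 with the shMYC2 label and 2441, 2335 and 2611 with MYC T58A. No groups overlap, with MYC T58A far above the rest and Resistant next. GDF15 was 5.24-fold higher in Resistant (2.37, SE 0.134, adjusted p = 9.04e-11) and 27.6-fold higher in MYC T58A cells (4.78, SE 0.134, adjusted p = 3.35e-15) than in Parental cells. Relative to Resistant it was 9.34-fold lower with the shMYC1 label (-3.18, SE 0.134, adjusted p = 9.44e-13) and 7.32-fold lower with the shMYC2 label (-2.84, SE 0.134, adjusted p = 8.19e-13). With the shMYC2 label its neighbours on chromosome 19 had a median of -0.62.

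GDF15 is also known as a target of the stress factors ATF4 and DDIT3, and 14 genes of that response were tested. In Resistant against Parental 11 were higher and 1 lower, in MYC T58A against Parental 6 and 4, with the shMYC1 label against Resistant 2 and 9, and with the shMYC2 label 2 and 10. These were 85.7%, 71.4%, 78.6% and 85.7% of the list, beside 51.6%, 63.8%, 57.1% and 79.2% of all tested genes. Their median differences were 0.89, 0.10, -0.42 and -1.03, beside 0.01, -0.02, -0.03 and -0.08 over all tested genes. NUPR1, a stress-induced chromatin protein, was measured at 25.2 ± 4.43 in Parental cells, 1016 ± 56.5 in Resistant cells, 30.4 ± 3.48 with the shMYC1 label, 8.36 ± 1.99 with the shMYC2 label and 43.2 ± 1.97 with MYC T58A. With MYC T58A it was 1.71-fold higher than in Parental cells (0.77, SE 0.175, adjusted p = 0.000909). There PSAT1, an enzyme of serine synthesis (1.02, SE 0.0457, adjusted p = 2.06e-12), CHAC1, which breaks down glutathione (1.02, SE 0.161, adjusted p = 2.53e-05), and CEBPB, a transcription factor (0.80, SE 0.287, adjusted p = 0.0299), were also higher. DDIT4, an inhibitor of mTORC1 (-2.07, SE 0.0546, adjusted p = 1.45e-15), the lipoprotein receptor VLDLR (-0.81, SE 0.0603, adjusted p = 1.88e-09) and ATF4 itself (-0.53, SE 0.0515, adjusted p = 6.02e-08) were lower. The call on CEBPB was lost without any single Parental library and without MYC T58A library 2 or 3 (adjusted p = 0.0574 to 0.0891), and without the shMYC2 libraries (adjusted p = 0.055). The part of this response in the level of GDF15 was not tested.

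CD82, a tetraspanin known as a suppressor of metastasis, was measured at 210.8, 219.2 and 213.9 in Parental cells, 449.3, 422.1 and 467.0 in Resistant cells, 261.6, 224.1 and 227.5 with the shMYC1 label, 2517, 2626 and 2468 with the shMYC2 label and 56.1, 49.9 and 53.8 with MYC T58A. No groups overlap, with the shMYC2 label highest and MYC T58A lowest. CD82 was 2.08-fold higher in Resistant (1.05, SE 0.0768, adjusted p = 2.65e-09) and 4.03-fold lower in MYC T58A cells (-1.99, SE 0.0768, adjusted p = 2.66e-13) than in Parental cells. Relative to Resistant it was 1.88-fold lower with the shMYC1 label (-0.91, SE 0.0768, adjusted p = 1.3e-08) and 5.69-fold higher with the shMYC2 label (2.51, SE 0.0768, adjusted p = 1.51e-15). Its neighbours on chromosome 11 had medians of 0.05, 0.17, -0.02 and -0.37 in these comparisons.

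**Figure D3:**
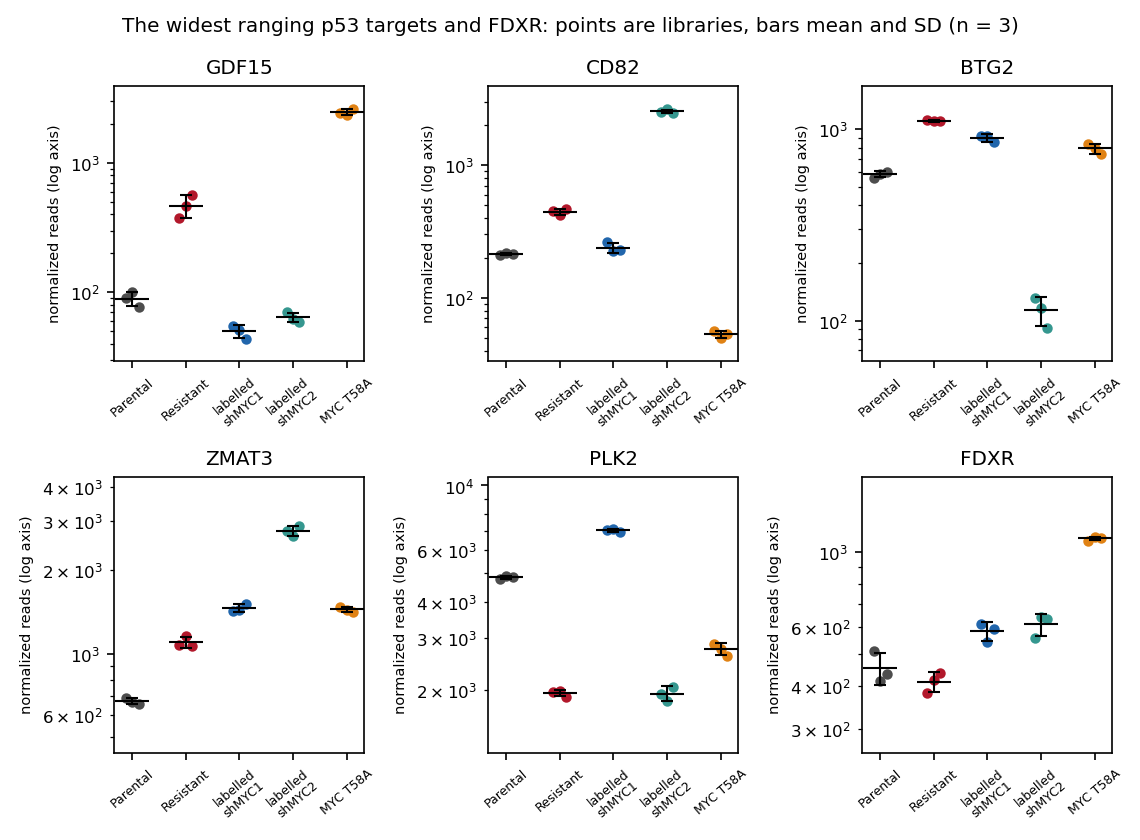
Normalized reads (vertical log axes that differ between panels) of the 5 members with the widest ranges and of FDXR, by group; points are the 3 libraries of a group, with their mean and SD. GDF15 is highest with MYC T58A, CD82 and ZMAT3 with the shMYC2 label, PLK2 with the shMYC1 label and BTG2 in Resistant cells.

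Resistant against Parental asks which p53 targets differ in cells selected for drug resistance. Of the 31 members, 16 were higher and 6 lower, where 51.6% of all tested genes were called (27.2% higher and 24.4% lower). GDF15, FAS, CD82 and DRAM1 had the largest increases, and the lower genes were PLK2, AEN, CCNG1, DDB2, SERTAD1 and PLK3. By role, 2 of 7 cell cycle members were higher and 4 lower, and 6 of 11 death genes were higher and 1 lower. Both secreted or surface genes were higher. The median difference of the members was 0.13, beside 0.01 over all tested genes. Libraries of the groups did not overlap for 23 members, where 63.5% of tested genes did not. Calls on XPC, PLK3, RPS27L and TRIAP1 were lost without Parental library 1 or Resistant library 1, and each also without at least 1 other library (adjusted p = 0.0507 to 0.172).

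MYC T58A against Parental asks which p53 targets differ in parental cells carrying MYC T58A. Mean MYC was also higher there (3511 against 422.7), so a longer protein life and a higher MYC level cannot be told apart. Here 19 members were higher and 8 lower, where 63.8% of all tested genes were called (30.1% higher and 33.7% lower). The median difference of the members was 0.45, beside -0.02 over all tested genes. All 3 metabolic genes, 7 of 11 death genes and 4 of 5 repair genes were higher. The largest increases were those of GDF15, FDXR, ZMAT3 and TRIAP1, the last a protective gene among the 7. Of the 7 cell cycle members 4 were lower (PLK2, GADD45A, PLK3 and CDKN1A), and BTG2 and CCNG1 were higher. CD82 had the largest decrease. The libraries did not overlap for 30 members, where 72.7% of tested genes did not. Less the median of each member's neighbours, 24 members were higher and 4 lower. No share of all tested genes was counted in that setting, and the shares above do not apply to it. The call on PERP was lost without Parental library 2 (-0.10, adjusted p = 0.0809).

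**Figure D4:**
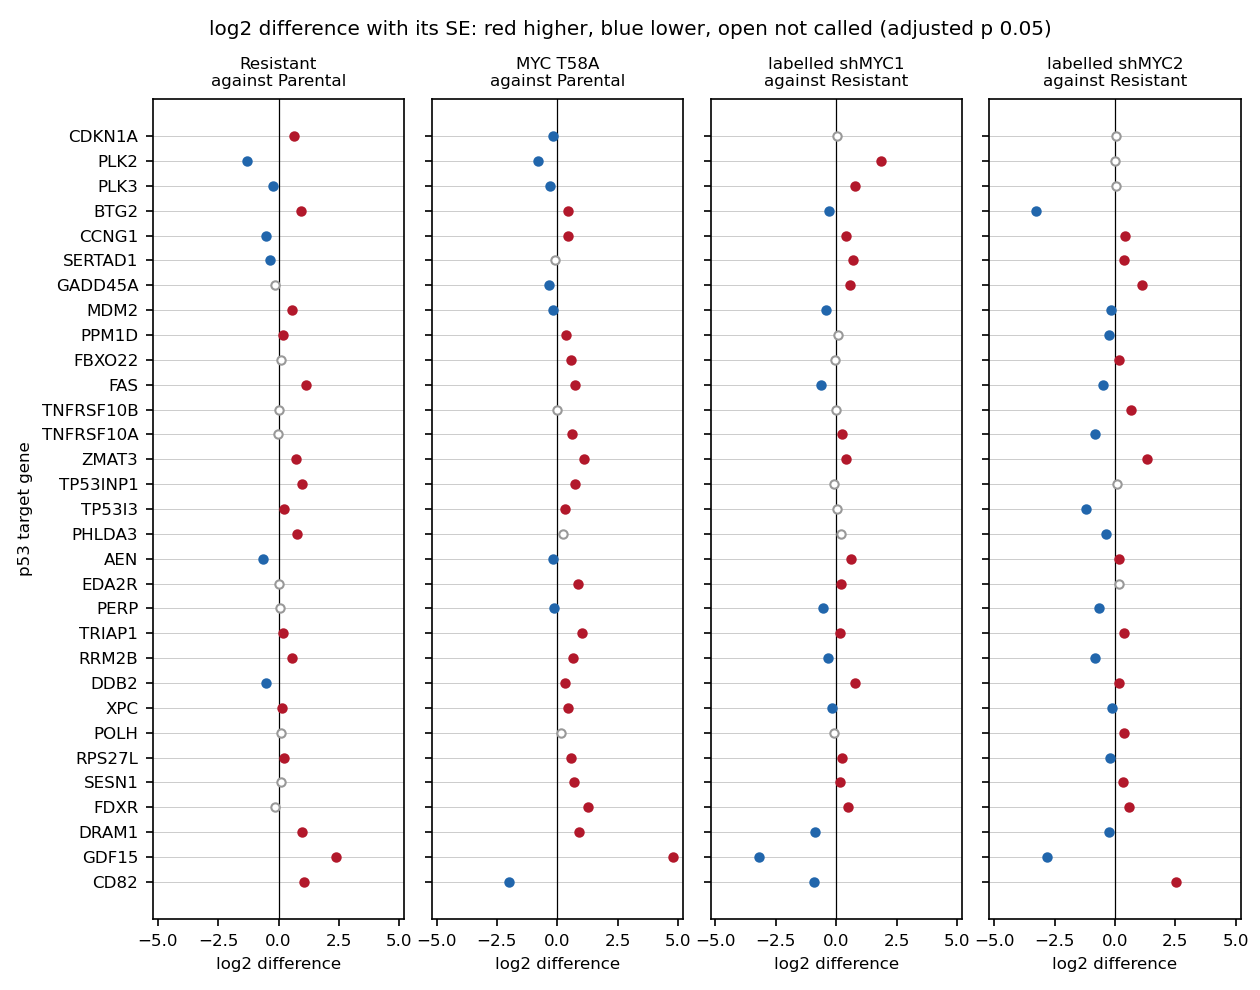
log2 difference of each of the 31 members in the 4 main comparisons, with the SE as bars, mostly smaller than the points; red is called higher, blue called lower and open not called. Comparisons with a group in common share its 3 libraries. With MYC T58A against Parental 19 members are called to the right of 0 and 8 to the left.

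With the shMYC1 label, 14 members were higher and 9 lower than in Resistant cells, where 57.1% of all tested genes were called (27.0% higher and 30.1% lower). The largest increases were those of PLK2, PLK3, DDB2 and SERTAD1, and the largest decreases those of GDF15, CD82, DRAM1 and FAS. Of 7 cell cycle members 5 were higher, and both secreted or surface genes were lower. Total-count scaling gave 10 members higher and 12 lower. All tested genes moved the same way with it, to 3843 higher and 6032 lower in place of 4596 and 5117. The median was 0.06 over the members and -0.03 over all tested genes, and 22 members did not overlap, where 60.1% of tested genes did not. Calls on SESN1, RPS27L, EDA2R and TRIAP1 were lost without Resistant library 2, and each also without others, EDA2R without 12 of the 15 (adjusted p = 0.0504 to 0.209).

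Against Parental, the same shMYC1 libraries had 20 members higher and 2 lower (GDF15 and PERP), where 39.6% of all tested genes were called (19.7% higher and 19.9% lower). Total-count scaling gave 2612 genes higher and 4352 lower over all tested genes, in place of 3350 and 3380. It gave 19 members higher and 3 lower. The libraries did not overlap for 23 members, where 50.7% of tested genes did not. CDKN1A was 1.58-fold higher (0.66, SE 0.055, adjusted p = 4.48e-08) and ZMAT3 2.17-fold higher (1.12, SE 0.0497, adjusted p = 1.5e-11). The call on MDM2 (0.12, SE 0.0422, adjusted p = 0.0338) was lost without any single Parental library and without library 1 or 3 with the shMYC1 label (adjusted p = 0.0558 to 0.119).

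With the shMYC2 label, 13 members were higher and 13 lower than in Resistant cells (83.9% called). Of all tested genes 79.2% were called (36.2% higher and 43.0% lower), so the share of members was near that of all genes. The largest increases were those of CD82, ZMAT3, GADD45A and TNFRSF10B, and the largest decreases those of BTG2, GDF15, TP53I3 and RRM2B. Quantile normalization gave 7863 genes higher and 6167 lower, in place of 6155 and 7319. The median of all tested genes was -0.08 as deposited, -0.22 with total-count scaling and 0.15 with quantile normalization, and that of the members 0.04, -0.10 and 0.02. Libraries did not overlap for 26 members, where 81.3% of tested genes did not. The direction of DDB2 (0.14, SE 0.0564, adjusted p = 0.0272) turned with total-count scaling (-0.0013). Leaving out any 1 of the 6 Resistant and shMYC2 libraries ended at least 1 of the calls on DDB2, XPC and RPS27L (adjusted p = 0.0558 to 0.132).

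Against Parental, the shMYC2 libraries had 15 members higher and 9 lower (77.4% called). Of all tested genes 79.5% were called (35.9% higher and 43.6% lower), so the share of members was near that of all genes. Libraries did not overlap for 27 members, where 84.1% of tested genes did not. CD82 was 11.8-fold higher (3.56, SE 0.0768, adjusted p = 1.22e-17), CDKN1A 1.58-fold higher (0.66, SE 0.055, adjusted p = 2.96e-09) and MDM2 1.3-fold higher (0.38, SE 0.0422, adjusted p = 1.89e-07). GDF15 was 1.4-fold lower (-0.47, SE 0.134, adjusted p = 0.00379), a direction that turned with quantile normalization (0.34) and less the median of its neighbours (0.20).

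Set directly against each other, the hairpin groups differed in 24 members (77.4%), 11 higher and 13 lower with the shMYC2 label. Of all tested genes 78.6% were called (35.7% higher and 42.9% lower), so the share of members was near that of all genes. Less the median of each member's neighbours, 7 were higher and 13 lower, a setting in which no share of all tested genes was counted. Libraries did not overlap for 24 members (77.4%), near the 78.8% of tested genes that did not. CD82 was 10.7-fold higher (3.41, SE 0.0768, adjusted p = 1.98e-17), BTG2 7.92-fold lower (-2.99, SE 0.0929, adjusted p = 1.99e-15) and PLK2 3.63-fold lower (-1.86, SE 0.0478, adjusted p = 1.32e-16). Calls on GDF15, SESN1 and PERP were lost without library 3 with the shMYC1 label, and each without others of these groups (adjusted p = 0.0665 to 0.13). The call on PERP was lost also without Parental library 3 (adjusted p = 0.0525).

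MYC T58A against Resistant gave 16 members higher and 8 lower, where 67.8% of all tested genes were called (31.8% higher and 36.0% lower). Less the neighbours' medians, 22 were higher and 5 lower, a setting in which no share of all tested genes was counted. Libraries did not overlap for 25 members, where 72.8% of tested genes did not. GDF15 was 5.26-fold higher (2.41, SE 0.134, adjusted p = 2.43e-11) and FDXR 2.65-fold higher (1.41, SE 0.0803, adjusted p = 3.55e-11), while CD82 was 8.38-fold lower (-3.04, SE 0.0768, adjusted p = 4.09e-16) and MDM2 1.65-fold lower (-0.72, SE 0.0422, adjusted p = 5.18e-11; -0.12 less its neighbours). Leaving out any 1 of the 6 libraries of these groups ended the call on SERTAD1 or GADD45A (adjusted p = 0.0526 to 0.161).

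**Figure D5:**
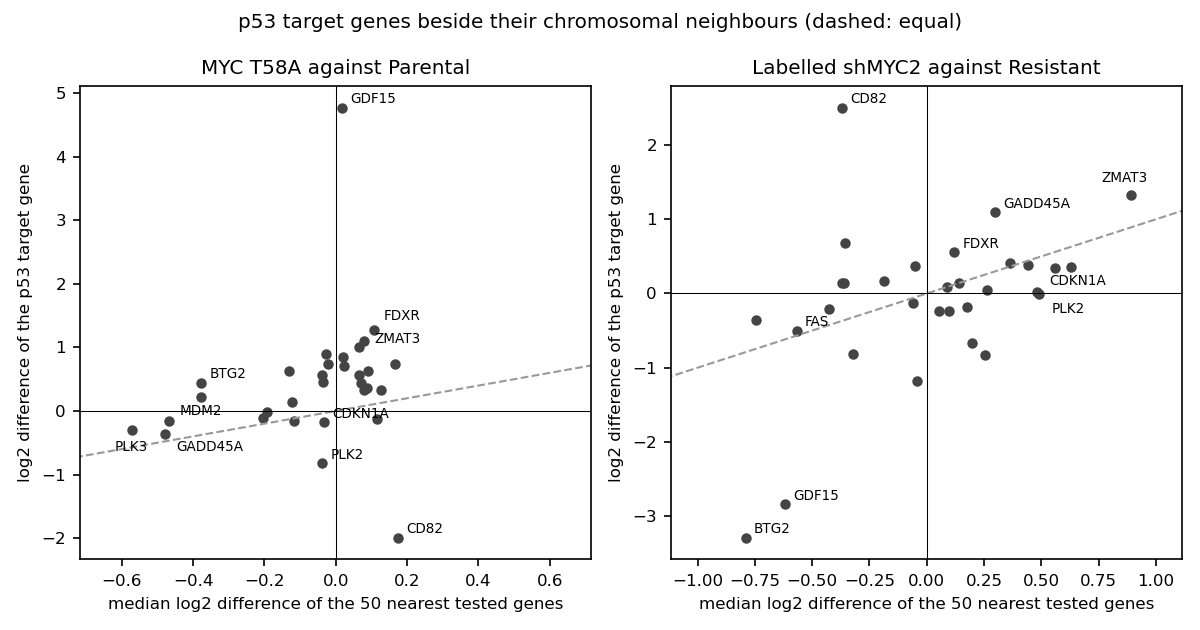
log2 difference of each member (vertical axis) against the median log2 difference of its 50 nearest tested genes (horizontal axis), for MYC T58A against Parental and for the shMYC2 label against Resistant; the dashed line marks equal values. GDF15 lies far from the line with MYC T58A, while MDM2 and GADD45A have neighbours with medians of -0.47 and -0.48 there.

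Among 34 further known p53 targets 28 were tested. In Resistant against Parental 15 were higher and 7 lower, in MYC T58A against Parental 16 and 8, with the shMYC1 label against Resistant 10 and 11, and with the shMYC2 label 9 and 13. The shares called were 78.6%, 85.7%, 75.0% and 78.6%, beside 51.6%, 63.8%, 57.1% and 79.2% of all tested genes, so that with the shMYC2 label the share was near that of all genes. Their median differences were 0.33, 0.33, -0.14 and -0.13 in the same order. BBC3, the proapoptotic protein PUMA, was measured at 208.1 ± 20.8 in Parental cells, 628.5 ± 114 in Resistant cells, 263.4 ± 19.6 with the shMYC1 label, 269.7 ± 11.6 with the shMYC2 label and 454.1 ± 48.1 with MYC T58A. It was 3.02-fold higher in Resistant cells than in Parental cells (1.58, SE 0.114, adjusted p = 2.42e-09) and 2.39-fold lower with the shMYC1 label than in Resistant cells (-1.24, SE 0.114, adjusted p = 4.22e-08). BAX, which opens the mitochondrial membrane, was 1.48-fold higher with MYC T58A than in Parental cells (0.57, SE 0.0684, adjusted p = 1.02e-06) and not called in Resistant cells (0.14, SE 0.0684, adjusted p = 0.102), where a fit of these groups alone did call it (adjusted p = 0.0341). NINJ1, a membrane rupture protein, was 2.79-fold higher in Resistant cells than in Parental cells (1.47, SE 0.116, adjusted p = 7.69e-09) and 12-fold lower with the shMYC2 label than in Resistant cells (-3.55, SE 0.116, adjusted p = 4.09e-15).

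Of 29 tested genes that regulate p53 or belong to its family, 10 were higher and 8 lower in Resistant against Parental, 7 and 9 in MYC T58A against Parental, 5 and 12 with the shMYC1 label against Resistant, and 7 and 14 with the shMYC2 label. These were 62.1%, 55.2%, 58.6% and 72.4% of the list, where 51.6%, 63.8%, 57.1% and 79.2% of all tested genes were called. CDKN2A, which encodes p16 and ARF, was measured at 43.5 ± 9.27 in Parental cells, 41.8 ± 5.3 in Resistant cells, 66.6 ± 7.49 with the shMYC1 label, 0.348 ± 0.602 with the shMYC2 label and 64.2 ± 13.4 with MYC T58A. TP73, a member of the p53 family, was measured at 187.0 ± 5.45 in Parental cells, 42.4 ± 8.7 in Resistant cells, 225.0 ± 18.6 with the shMYC1 label and 22.3 ± 6.76 with MYC T58A, and had no read with the shMYC2 label. MDM4, which holds p53 inactive beside MDM2, was 1.26-fold higher in Resistant cells than in Parental cells (0.33, SE 0.0823, adjusted p = 0.00283), and less the median of its neighbours it was -0.10.

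Another list held 24 cell cycle genes known to be repressed when p21 acts. In Resistant against Parental 1 was higher (CENPF) and 12 lower, and in MYC T58A against Parental 3 and 13, beside CDKN1A differences of 0.64 and -0.18. With the shMYC1 label against Resistant 14 were higher and 1 lower, and with the shMYC2 label 6 and 11, where CDKN1A was called in neither. In all 54.2%, 66.7%, 62.5% and 70.8% of the list were called, in the order given, beside 51.6%, 63.8%, 57.1% and 79.2% of all tested genes. CCNB1, the mitotic cyclin B1, was 2.01-fold lower in Resistant cells than in Parental cells (-1.01, SE 0.0466, adjusted p = 6.1e-12) and 1.99-fold higher with the shMYC1 label than in Resistant cells (0.99, SE 0.0466, adjusted p = 4.32e-12). Of the 5 tested CDK inhibitors other than CDKN1A, 2 were higher and 3 lower in Resistant against Parental, 1 and 4 in MYC T58A against Parental, 4 and 1 with the shMYC1 label against Resistant, and 2 and 3 with the shMYC2 label. All 5 were thus called in each, where 51.6% to 79.2% of all tested genes were. CDKN1C, the inhibitor p57, was 28.9-fold lower in Resistant cells than in Parental cells (4.96 ± 2.18 and 143.3 ± 18.7; -4.65, SE 0.497, adjusted p = 6.86e-07).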

How the data were processed

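RNA from 15 libraries, made with a stranded mRNA kit per the labels' protocols, was sequenced. Trim Galore, cutadapt, STAR, HTSeq and DESeq2 appear in the submitters' processing notes without versions. The build, the annotation and the counted strand were not given in the sources used here. For every gene symbol and library a signal value was deposited by the authors, which is a read count divided by a size factor. That was inferred from the numbers, since 100% of values in every column are whole multiples of a single step (0.881 to 1.08; tolerance 0.01), and the steps gave back whole reads. Columns carry no replicate number.

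After log2(value + 1), which understates changes of low genes, 17012 genes that reached 10 in 3 or more libraries were tested and 1310 were left out. limma 3.58.1 (R 4.3.3; trend, robust) fitted a mean per group over the 15 libraries, with Benjamini-Hochberg adjustment over all tested genes. The fit was tested on simulated data. Alternatives were edgeR 4.0.16 and DESeq2 1.42.0 on the recovered reads, pseudocounts of 0.1 and 10, a filter at 50 or none, total-count and quantile scaling, a non-robust fit, only the groups compared, no shMYC2 libraries, a minimum change of 0.5, each library left out, and each member less the median of its 50 nearest tested genes. In the neighbour setting each gene kept its own SE, so uncertainty in the neighbours' median does not enter its p or call. Gene order came from GENCODE on GRCh38, which may differ from the authors' build. Promoter windows came from RefSeq.

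Members and gene lists were chosen with earlier results of these data known. In each main comparison the text gives the 4 called members with the largest increase and the 4 with the largest decrease (mean of at least 50 in the higher group), besides CDKN1A, MDM2 and MYC (1 other gene is not reported here), and up to 3 genes per direction of another list. Other members, BAX, CDKN2A and MDM4 were named after their values were seen. Over all libraries keratinocyte or epithelial markers summed to 983 to 2278 normalized reads, endothelial markers to 10.6 to 164, immune markers (2 of 6 measured) to 18.0 to 278, and mitochondrial transcripts to 124180 to 261622.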

Additional observations from a re-analysis of the deposited data

Results flagged for a closer look

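By their labels, the 2 hairpin groups carry hairpins against the same gene. Mean MYC was nevertheless 486.0 with the shMYC1 label and 7817 with the shMYC2 label, beside 302.5 in Resistant cells. The calls below therefore compare labels and not measured losses of MYC. In these groups 3 members were called in opposite directions against the same Resistant libraries, with a called difference between the groups themselves. Of all tested genes 57.1% (shMYC1 label) and 79.2% (shMYC2 label) were called against Resistant, and 78.6% between the groups. How many of all tested genes meet the same rule was not counted, so the count describes these members only. CD82 was lower than in Resistant with the shMYC1 label (-0.91) and higher with the shMYC2 label (2.51), and the groups differed by 3.41 on the log2 scale (SE 0.0768, adjusted p = 1.98e-17). TNFRSF10A was higher with the shMYC1 label (0.25) and lower with the shMYC2 label (-0.81), and the difference between the groups was -1.07 (SE 0.06, adjusted p = 1.1e-11). All 3 libraries labelled shMYC2 lay below all 3 labelled shMYC1. RPS27L was higher with the shMYC1 label (0.22, adjusted p = 0.0392) and lower with the shMYC2 label (-0.22, adjusted p = 0.0319), and the difference between the groups was -0.44 (adjusted p = 0.000225). Library 2 labelled shMYC1 held 4895 normalized reads of RPS27L beside 3703 and 3955 in its group, and without it the first call was lost (0.10, adjusted p = 0.202). The call was lost also without Resistant library 1, 2 or 3, and the second without Resistant library 1 or 3 or library 2 or 3 labelled shMYC2 (adjusted p = 0.0841 to 0.0986). Less the median of its neighbours, RPS27L was higher under both labels (0.28, adjusted p = 0.0115, and 0.21, adjusted p = 0.0352), and the difference between the groups was not called (-0.17, adjusted p = 0.0866). CD82 (-0.89 and 2.88) and TNFRSF10A (0.29 and -0.49) kept their opposite directions there. The adjusted p in that setting take the neighbours' median as exact. With 3 libraries, groups were too small to check single libraries for outlying values.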

How the results depend on the processing

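Of 221 recomputed counts of called members, 213 stayed within 1.5 times the count reported. The other 8 came from requiring a change of at least 0.5. That left 9 members in Resistant against Parental and 11 in MYC T58A against Parental. It left 7 and 10 with the shMYC1 and shMYC2 labels against Resistant, and 3 and 12 with these labels against Parental. Between the hairpin groups 10 were left, and 9 in MYC T58A against Resistant. Shares of all tested genes under that requirement were not counted, so these counts do not set the members apart from other genes. Leaving out each library in turn gave 18 to 23, 26 to 28, 19 to 23, 24 to 26, 21 to 25, 24 to 26, 21 to 24 and 23 to 24 called members in the same order; a group of 2 is then assumed to vary like the others. Of 7326 recomputed differences of single genes described, 6880 kept sign and call, 268 lost the call and 74 gained it. Sign changed in 104, of which 33 were called before or after and 71 in neither.

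Most of the 33 came from taking off the neighbours' median; the cause was not tested. In Resistant against Parental PERP became -0.33 and MDM4 -0.10. In MYC T58A against Parental MDM2 became 0.30, TNFRSF10B 0.17, PLK3 0.27 and GADD45A 0.11. With the shMYC1 label against Resistant TP53I3 became -0.38, BTG2 0.12 and CCNG1 -0.011. For the shMYC2 label against Resistant CDKN1A became -0.46, FAS 0.069, SESN1 -0.22, POLH -0.27, PLK3 -0.22, PHLDA3 0.39, RPS27L 0.21 and TRIAP1 -0.051. For the shMYC2 label against Parental GDF15 became 0.20, SESN1 -0.10 and POLH -0.19. Between the hairpin groups CDKN1A became -0.62, MDM2 -0.032, SESN1 -0.46, POLH -0.21 and TRIAP1 -0.10. In MYC T58A against Resistant TNFRSF10B became 0.10, TP53I3 -0.34, PLK3 0.39, PHLDA3 0.36, BTG2 0.47 and GADD45A 0.35. Total-count scaling turned DDB2 with the shMYC2 label against Resistant (-0.0013) and quantile normalization turned GDF15 with that label against Parental (0.34). No paired analysis was possible because the columns carry no replicate numbers that pair libraries across groups. Every member had at least 46 reads in each library, and 3 libraries per group limit the precision.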
